A study of Mus musculus with 2 samples.

Results

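Monocytes were picked out of 2 droplet single-cell RNA libraries of bone marrow cells (BMCs), 1 from a wild type (WT) mouse and 1 from an S1P Cko mouse, both C57BL/6J and at postnatal day 21. S1P, site-1 protease, is encoded by *Mbtps1*, and the Cko mouse lacks it in the *osterix* (*Osx*, *Sp7*) lineage: an *Osx* promoter transgene drives a GFP and Cre fusion that removes a floxed exon of *Mbtps1* in cells that express or once expressed osterix. The study describes WT mice of its other experiments as S1P f/f, that is, floxed without the Cre, whereas the sample labels call this animal only wild type. With 1 WT and 1 Cko library, the transgene and the deletion cannot be told apart here. Marrow from fore- and hindlimbs was released by crushing and collagenase, the fractions were joined, and red blood cells were lysed before capture.

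The monocytes were chosen by their counts. A member had at least 5 unique molecules (UMIs) over *Ms4a6c* (a membrane-spanning 4A family gene), *Ccr2* (the chemokine receptor that monocytes use to leave the marrow), *F13a1* (coagulation factor XIII A chain) and *Fn1* (fibronectin). *Mpo* plus *Ctsg* had to be under 0.1%, *Elane* plus *Prtn3* under 0.2%, 6 neutrophil granule genes under 5% and hemoglobin under 1% of the cell's UMIs. *Siglech* and *Cd79a* had to be 0, the C1q genes under 3 UMIs, and *Cd74* plus *H2-Aa* under 10 UMIs. This gave 589 of 9933 cells, 219 of 6271 in WT and 370 of 3662 in Cko. The levels of these genes in the members follow from that choice and are given only as a description.

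Monocytes arise in the marrow from granulocyte and monocyte progenitors, divide there as immature cells, and leave for the blood through *Ccr2*. In mice, classical monocytes carry high Ly6C on their surface, whereas nonclassical monocytes carry little Ly6C and depend on *Nr4a1*. Classical monocytes respond strongly to interferon and can become macrophages in tissue. S1P, the protease named above, cuts the membrane-held transcription factors SREBP and ATF6 in the Golgi, a step in their activation. Once active, they switch on cholesterol synthesis genes and endoplasmic reticulum chaperone genes.

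The libraries held 56382459 UMIs in WT and 34447224 in Cko, with medians of 6977 and 7440 UMIs per kept cell. Each genotype is 1 library from 1 mouse, so no difference had a replicate check and no p-value was computed. *Xist* was listed only in Cko, with UMIs in 336 of 370 monocytes. The Y-linked *Ddx3y* and *Eif2s3y* were listed only in WT, with UMIs in 41 and 56 of 219 monocytes. Genotype and the pattern of these sex chromosome genes therefore cannot be told apart. *Mbtps1* had 48 UMIs in WT and 87 in Cko monocytes, a ratio per total UMIs of 1.03 (0.717 to 1.5), but 3′ reads do not show whether its floxed exon is present. *Sp7* was listed only in WT, with 6 UMIs in 1 monocyte. The libraries shared 28 barcodes, 0 of them among the monocytes, and 6 WT and 3 Cko monocytes were called doublets. A gene was listed only if it reached 4 UMIs in some cell of its library, and an unlisted gene was not read as 0.

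The members were first set against the rule that chose them. In WT, 537 cells had 5 or more marker UMIs, and 222 of these failed the *Mpo* and *Ctsg* limit, 240 the *Elane* and *Prtn3* limit, 25 the hemoglobin limit and 22 the *Cd74* and *H2-Aa* limit. In Cko, 770 cells had 5 or more, of which 231, 241, 13 and 75 failed the same limits. Most cells left out thus still carried primary granule transcripts. Cells at the edge were few: 6 WT and 7 Cko cells had 4 marker UMIs and met every other limit, and 6 and 7 members had exactly 5. The median member had 16 marker UMIs in WT and 20 in Cko. *Ms4a6c* stood at 1270 UMIs per 1000000 UMIs (CPM) in WT and 1072 in Cko monocytes, and *Fn1* at 643 and 1313 CPM. Of the marker genes of the rule, *Fn1* differed the most.

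*Ly6c2*, which encodes the Ly6C2 surface antigen of classical monocytes and was not used by the rule, was set against the name. It had UMIs in 97.7% of WT and 98.1% of Cko members. After each cell was thinned to 3000 UMIs, 96.8% and 97.8% still had one, against 9.13% and 13.7% of B cells and 92.0% and 91.7% of neutrophils. The level was 4626 and 3631 CPM in members, 1202 and 1190 CPM in neutrophils and 98.1 and 128 CPM in B cells. Marker cells at or above the *Mpo* and *Ctsg* limit had 3560 and 4122 CPM, so *Ly6c2* did not separate the members from these. The name monocytes thus rests on the level of *Ly6c2* together with the limits of the rule on progenitor and neutrophil genes. Genes of other lineages marked 8 WT and 8 Cko members, each with 5 or more UMIs over stromal, platelet or T and NK cell genes, and of these 7 and 6 had no *Ms4a6c* UMI. These cells met the rule without looking like the rest, and they are named wherever 1 of them sets a value.

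A further 12 genes outside the rule stood highest in monocytes over all other cells, and they describe what these cells make. *Wfdc17*, a secreted whey acidic protein family member, was 26.2 times higher in monocytes than in other WT cells and 22.9 times higher than in other Cko cells. *S100a4*, a calcium-binding protein of motile cells, stood 29.7 and 17.8 times higher, and *Ccl6*, a chemokine of myeloid cells, 24.5 and 14.9 times. *Lgals3*, which encodes galectin-3, stood 25.2 and 10.3 times higher. The lysosomal protease gene *Ctss* was 21.3 and 11.8 times higher, and *Tgfbi*, a secreted matrix protein gene, 15.0 and 11.7 times. *Ms4a4c*, *Ifi27l2a*, *Mpeg1* (a pore-forming antibacterial protein), *S100a6*, *Ahnak* and *Pld4* completed the set, at 6.86 to 23.8 times. All 12 were above the rest in both libraries. These folds describe the selected cells and are no test.

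Monocytes made up a larger share of the Cko library. They were 3.49% of WT cells (exact binomial 95% interval 3.05 to 3.98) and 10.1% of Cko cells (9.15 to 11.1), a ratio of 2.89 (2.44 to 3.44). The intervals here and below cover counting error only. Among non-erythroid cells the shares were 8.28% and 12.1%, a ratio of 1.46 (1.22 to 1.73), since non-erythroid cells were 2535 of the WT and 3053 of the Cko cells. Neutrophils, taken as cells with at least 20% granule UMIs, were 12.5% and 34.3% of all cells. Cells that had 5 or more marker UMIs, were at or above the *Mpo* and *Ctsg* limit and met the granule, hemoglobin, *Siglech* and *Cd79a* limits, called marker cells with *Mpo* or *Ctsg* below, numbered 186 and 196, or 2.97% and 5.35%, a ratio of 1.80 (1.47 to 2.22). Recovery of each cell type after lysis and the size of its pool in the animal cannot be told apart in a share.

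**Figure D1:**
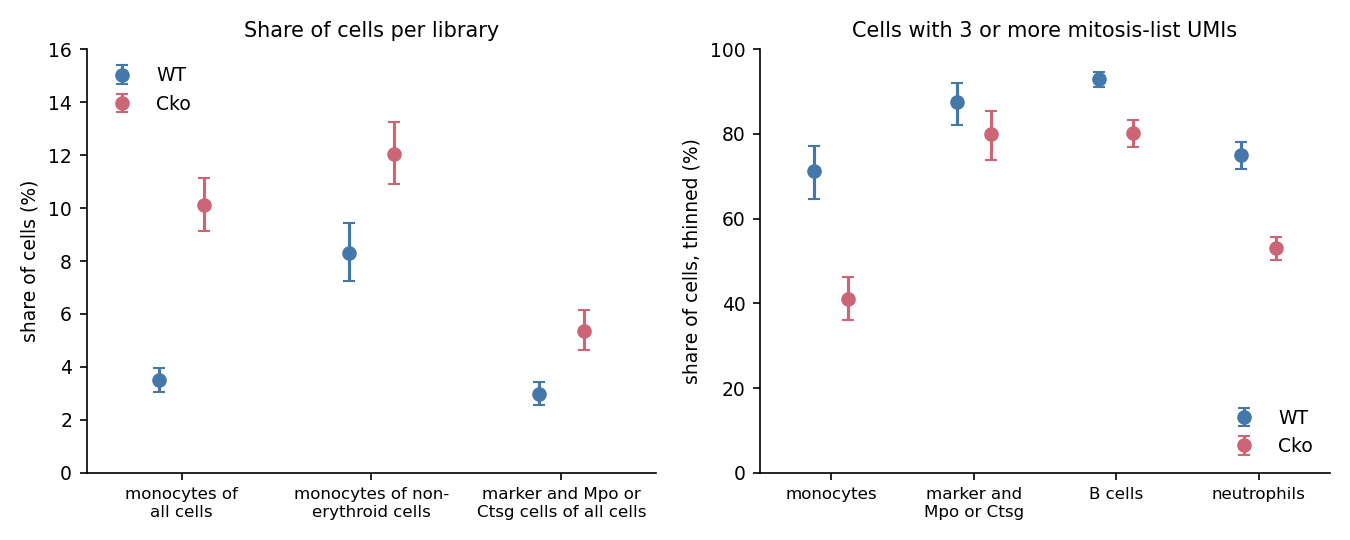
Shares of cells in percent with exact binomial 95% intervals, WT in blue and Cko in rose. The left panel gives monocytes of all cells, monocytes of non-erythroid cells and marker cells with *Mpo* or *Ctsg*. The right panel gives the share of monocytes, marker cells with *Mpo* or *Ctsg*, B cells and neutrophils that had at least 3 UMIs over 21 mitosis genes after thinning, and monocytes show 71.2% in WT against 41.1% in Cko.

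Fewer Cko monocytes carried transcripts of mitosis. With each cell thinned to 3000 UMIs, 156 of 219 WT monocytes (71.2%, 64.7 to 77.1) and 152 of 370 Cko monocytes (41.1%, 36.0 to 46.3) had at least 3 UMIs over 21 genes of G2 phase and mitosis, a ratio of 0.577 (0.458 to 0.726). Without thinning the shares were 75.3% and 47.0%. The median monocyte had 10 such UMIs in WT and 1 in Cko. At least 3 UMIs over 21 S phase genes were seen in 53.0% and 28.9%, a ratio of 0.546 (0.416 to 0.716). The 3-UMI limit cuts a range and does not mark a type, and 11.4% of WT and 8.65% of Cko monocytes had 2 or 3 mitosis UMIs.

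Other cell types also had lower shares in Cko, with ratios nearer to 1. B cells at the limit were 93.0% and 80.3%, a ratio of 0.863 (0.768 to 0.969). Neutrophils were 75% and 53.0%, and marker cells with *Mpo* or *Ctsg* 87.6% and 80.1%. Neutrophils, many of which no longer divide, still reached the limit in most cells, and the part of free RNA in these shares was not tested. No rate of division is read from them. Of the S phase genes, 18 had at least 100 UMIs over the monocytes, and all 18 were lower in Cko. *Mcm2*, a subunit of the replicative helicase, was 57.6 CPM in WT and 20.2 CPM in Cko monocytes, a ratio of 0.350 (0.239 to 0.508). All 21 G2 and mitosis genes were lower too, *Top2a* (topoisomerase II alpha) at 509 and 279 CPM. Within the monocytes at or above the limit their sum was 6054 CPM in WT and 6555 CPM in Cko. Below the limit the sum was 288 and 223 CPM. As the same genes set the limit, these sums only describe the classes. *Hist1h2ap*, a replication histone gene named after its values were seen, had 950 CPM in WT and 241 CPM in Cko.

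Across the genome, 3620 genes were listed in both libraries and had at least 100 UMIs over the monocytes. Of these, 65 (1.8%) were past 2-fold higher in Cko and 85 (2.35%) past 2-fold lower, around a median log2 ratio of -0.10. The counts of every list below are to be read against these shares. In B cells, 26 of the 65 and 23 of the 85 were past 2-fold in the same direction. The share of all 3620 genes past 2-fold in B cells is not given, so B cell counts here and below are only a description. In monocytes above and below the mitosis limit alike, 33 of the 65 and 30 of the 85 were past 2-fold. Both classes are parts of the sums that set the calls, so some of this overlap is built in. Single cells made some of the calls: 6 of the higher and 19 of the lower genes had at least 50% of their UMIs in the higher library in 1 cell.

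**Figure D2:**
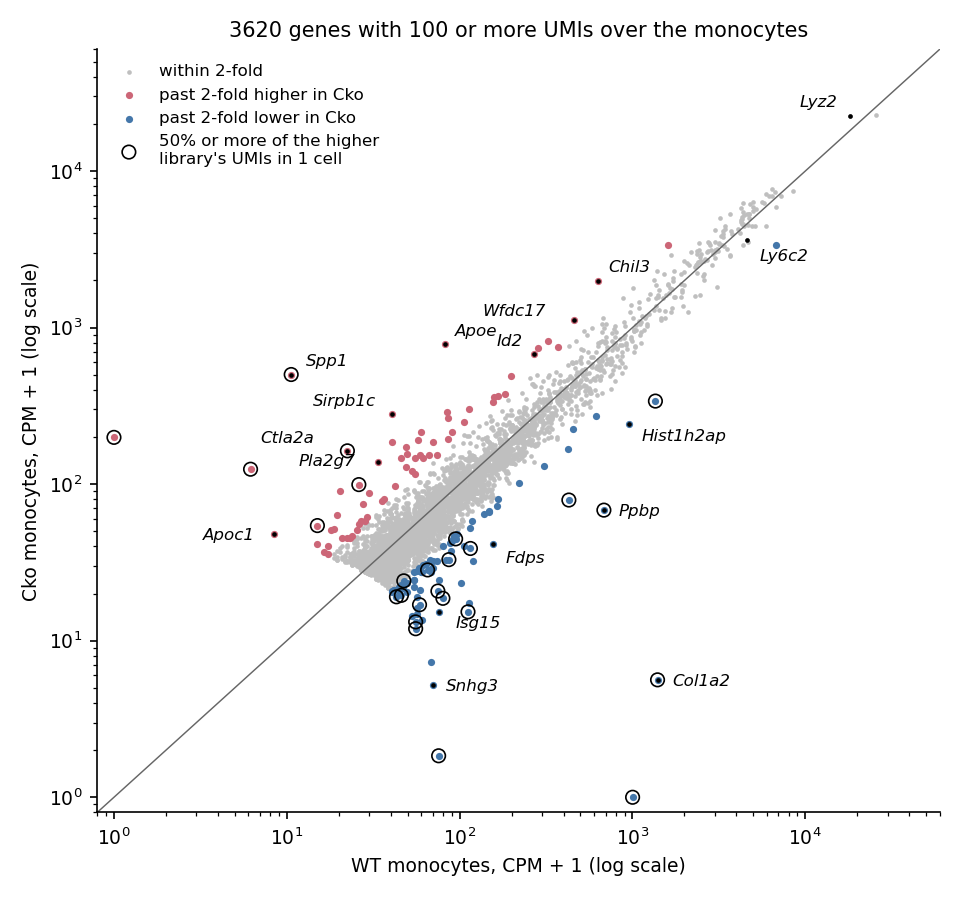
Level of each of 3620 genes in WT (horizontal) and Cko (vertical) monocytes, both as CPM plus 1 on log axes, with genes past 2-fold coloured. Open circles ring the genes with at least 50% of the higher library's UMIs in 1 cell, and *Apoe* and *Sirpb1c* stand out among the genes without a ring.

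The genes furthest above in Cko that were spread over many cells were lipid, receptor and actin genes. *Apoe* (chr7:19696109-19699188, GRCm38), which encodes the lipid carrier apolipoprotein E that macrophages secrete, had 110 UMIs over 219 WT monocytes and 1865 over 370 Cko monocytes. That was 81.3 and 784 CPM, a ratio of 9.65 (exact conditional 95% interval 7.96 to 11.8). Cells with a UMI went from 34 in WT to 219 in Cko, and after thinning from 9.13% to 49.7%, against 1.14% and 3.29% of B cells. The most in 1 cell was 18 UMIs in WT and 46 in Cko, so no single cell set the level.

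*Apoe* was higher in Cko on both sides of the mitosis limit, at 22.6 and 200 CPM at or above it and 295 and 1455 CPM below it. In marker cells with *Mpo* or *Ctsg* it was 14.1 and 14.9 CPM. Over all kept cells, 35 in WT and 33 in Cko had 3 or more C1q UMIs and under 1% hemoglobin, whatever their marker UMIs. In these, resident macrophages by C1q, *Apoe* was 1164 and 1621 CPM. Of the cells with 5 or more marker UMIs, only 3 in WT and 13 in Cko failed the C1q limit. *Apoc1*, an apolipoprotein gene beside *Apoe* (chr7:19689481-19692660), had 10 and 112 UMIs, a ratio of 6.37 (3.34 to 13.7). The other macrophage genes bore on this result: of a list of 9, 6 were listed in both libraries, and the summed level per cell ran from 0 to 5009 CPM in WT (median 0) and 0 to 10543 CPM in Cko (median 268). Without *Apoe* the list had a log2 ratio of 1.05, *Vcam1* had 42 of its 52 Cko UMIs in 1 cell, *Hmox1* (heme oxygenase) had 39.2 and 63.1 CPM, and *Cd5l* and *Mertk* were listed only in WT with 1 UMI each. *C1qa*, *C1qb* and *C1qc* together were limited by the rule. Macrophage content as a part of the *Apoe* result was not tested.

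*Sirpb1c*, a signal-regulatory protein beta receptor gene, had 54 UMIs in WT and 664 in Cko monocytes, or 39.9 and 279 CPM, a ratio of 7.0 (5.30 to 9.41). It was seen in 11.9% of WT and 43.8% of Cko monocytes after thinning. *Pla2g7*, a secreted phospholipase that degrades platelet-activating factor, stood at 32.5 and 138 CPM, a ratio of 4.23 (3.08 to 5.93). *AF251705*, a CD300 family receptor gene, stood at 19.2 and 90.0 CPM. No single cell set these 3 ratios, as the most in any Cko cell was 10, 7 and 6 UMIs.

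*Cap1*, which encodes a cyclase-associated actin-recycling protein, was 39.9 and 185 CPM, a ratio of 4.64 (3.49 to 6.27). It was also higher in B cells, with a ratio of 5.29, and in neutrophils, with 5.82, so its difference was as large outside the monocytes. Of the 65 higher genes, 9 carried ribosomal protein pseudogene names, and 7 of these 9 were past 2-fold higher in B cells too. *Rpl9-ps6*, for example, had a ratio of 3.11 in monocytes and 2.66 in B cells. Whether reads counted to such genes came from the parent genes was not tested. *Fabp4*, *Spp1*, *Mgp* and *Ctla2a* completed the 10 highest ratios, and each came from 1 Cko cell: 1182 of 1191 *Spp1* UMIs, 470 of 471 *Mgp* UMIs, 350 of 386 *Ctla2a* UMIs and 224 of 294 *Fabp4* UMIs.

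**Figure D3:**
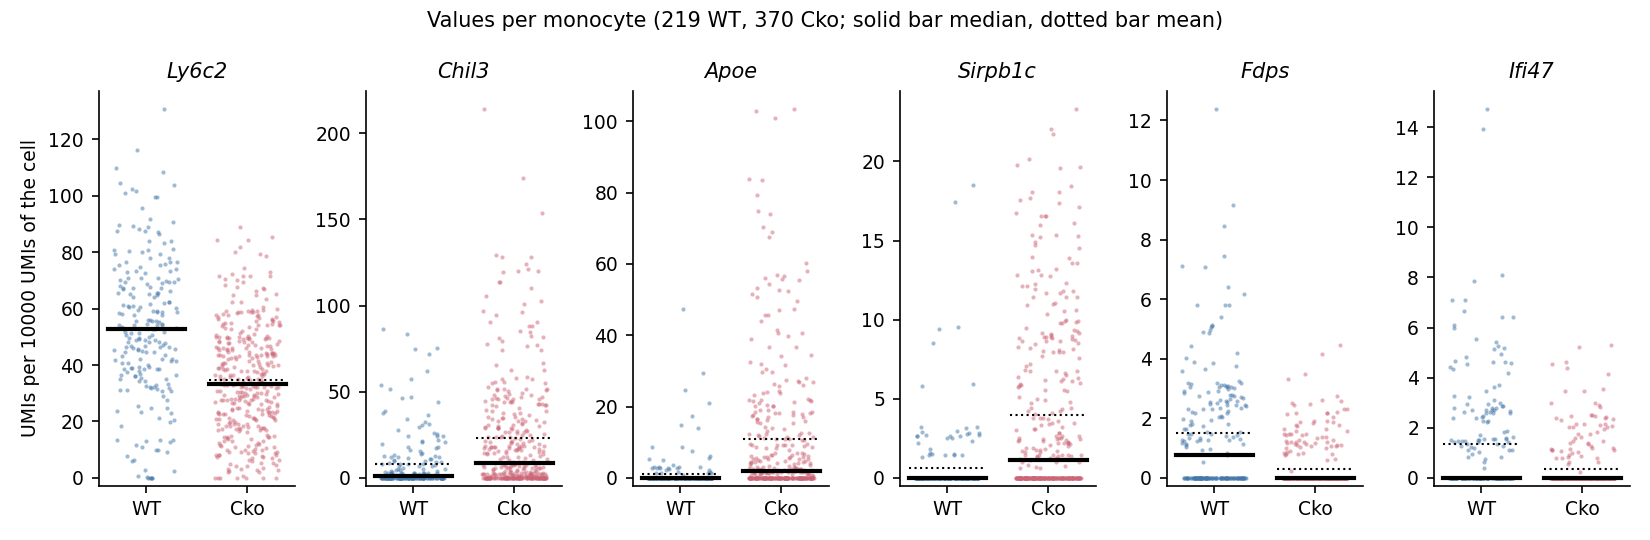
UMIs per 10000 in every monocyte of each library for *Ly6c2*, *Chil3*, *Apoe*, *Sirpb1c*, *Fdps* and *Ifi47*, with a solid line at the median and a dotted line at the mean. *Ly6c2* has a median of 52.6 in WT and 33.3 in Cko, and *Apoe* a median of 0 in WT and 1.90 in Cko.

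*Nfkbia* and *Ccl9* of an inflammatory list were past 2-fold higher in Cko. Of its 18 genes, 11 were listed in both libraries and 4 reached 100 UMIs, of which 2 were past 2-fold higher and 0 past 2-fold lower. *Nfkbia*, the inhibitor that NF-kB itself switches on, was 83.5 and 289 CPM, a ratio of 3.46 (2.84 to 4.27), and was seen in 35.6% and 80.0% of monocytes. Its ratio was 1.31 in B cells and 1.21 in neutrophils. In marker cells with *Mpo* or *Ctsg*, *Nfkbia* was also higher in Cko, at 34.7 and 80.9 CPM, with UMIs in 31.7% and 67.3% of cells. *Ccl6* was 581 and 997 CPM, and *Sod2*, the mitochondrial superoxide dismutase, 131 and 108 CPM. The list summed to 986 CPM in WT and 1787 CPM in Cko, a ratio of 1.81 (1.70 to 1.93). Below the mitosis limit the ratio of the list was 1.22 (1.12 to 1.34), and at or above it 1.75.

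*Chil3*, a chitinase-like protein made by myeloid cells, was 629 and 1990 CPM, a ratio of 3.16 (2.94 to 3.41). Its neutrophil level was far higher, 10853 and 9620 CPM. B cells held 312 and 411 CPM, and those that met the 5% granule limit of the rule 29.1 and 49.4 CPM. The part of free RNA was not tested. In B cells the ratio was 1.32, and marker cells with *Mpo* or *Ctsg* held 77.8 and 209 CPM of *Chil3*. *Wfdc17* was 458 and 1119 CPM, a ratio of 2.44 (2.24 to 2.67), with B cells at 5.44 and neutrophils at 7.26. *Ccl9*, *Cd302* (a C-type lectin receptor), *Trf* (transferrin) and *Gdpd3* were named after their values were seen, at ratios of 2.28, 3.63, 3.59 and 3.37. *Cd302* UMIs were in 28.8% of WT and 69.7% of Cko monocytes. In marker cells with *Mpo* or *Ctsg*, *Cd302* was 13.7 and 33.3 CPM, *Ccl9* 106 and 124 CPM and *Trf* 21.0 and 25.3 CPM.

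A list of monocyte transcription factors held 1 gene past 2-fold. Of 18 factors, 11 reached 100 UMIs, 1 was past 2-fold higher and 0 past 2-fold lower. That 1 was *Id2*, an inhibitor of basic helix-loop-helix factors, at 269 and 673 CPM, a ratio of 2.50 (2.23 to 2.81), and the difference was seen at or above the mitosis limit (264 and 623 CPM) and below it (285 and 730 CPM). *Cebpb*, which sustains monocyte survival, was 688 and 986 CPM. *Spi1* (PU.1) was 425 and 575 CPM and *Klf4* 220 and 215 CPM, both named after their values were seen. *Irf8*, the factor that directs progenitors towards monocytes and dendritic cells, was lower in Cko at 479 and 275 CPM, a ratio of 0.573 (0.514 to 0.640). In monocytes below the mitosis limit *Irf8* was 216 and 243 CPM, and at or above it 551 and 302 CPM, so of these classes only the one at or above the limit had the lower level.

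Phagocyte machinery was described by 3 lists. Lysosome and antimicrobial genes, 19 of 20 with 100 UMIs, summed to a ratio of 1.22 (1.20 to 1.23), and *Lyz2*, the lysozyme gene, led them with 24535 and 53683 UMIs, a ratio of 1.25 (1.23 to 1.26). *Ctsc*, a protease that activates granule enzymes, was lower at 514 and 322 CPM, and *Ctsl* (cathepsin L) was higher at 28.8 and 86.2 CPM, although 71 of its 205 Cko UMIs came from 1 cell. The list had 2 genes past 2-fold higher, *Ctsl* and, just past the limit at a ratio of 2.0 and named after its value was seen, the second lysozyme gene *Lyz1*, and 0 past 2-fold lower, against 1.8% higher and 2.35% lower over all genes tested. The 6 subunits of the phagocyte NADPH oxidase had 0 genes past 2-fold, with *Ncf1* at 93.1 and 78.6 CPM and *Cyba*, the most abundant, at 1909 and 2191 CPM. Among 21 receptor and adhesion genes with 100 UMIs, 0 were past 2-fold. They ran from *Fcgr1*, the high-affinity IgG receptor (43.6 and 26.9 CPM), to *Tnfrsf1b*, the second TNF receptor (28.1 and 55.5 CPM), with the signalling adaptor *Tyrobp* at 2998 and 4228 CPM. Antigen presentation genes were mixed: *B2m* was 1998 and 2653 CPM, *H2-T23* 24.4 and 50.02 CPM, and the immunoproteasome subunit *Psmb9* 335 and 199 CPM, with *H2-DMa* of the class II pathway at 275 and 272 CPM.

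Immediate early genes, which can be switched on while cells are being prepared, had 9 of 15 genes with 100 UMIs, all 9 above 0 and 0 past 2-fold. They summed to 696 and 908 CPM. Below the mitosis limit the ratio of the list was 0.851 (0.760 to 0.955), so its direction depended on that split. *Fos*, named after its values were seen, had UMIs in 13.2% and 31.6% of monocytes.

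Interferon-stimulated genes were lower in Cko monocytes. Of 26 genes on the list, 22 were listed in both libraries and 15 had at least 100 UMIs. Of these 15, 0 were past 2-fold higher, 5 were past 2-fold lower and 13 were below 0, and the median log2 ratio was -0.77. The list summed to 9523 CPM in WT and 6929 CPM in Cko, a ratio of 0.728 (0.711 to 0.745), and to 0.685 without *Ifitm3*, its most abundant gene. The ratio was 0.638 in monocytes at or above the mitosis limit and 0.650 below it. It was 0.845 in B cells (0.821 to 0.870) and 0.998 in neutrophils, and 0.702 in marker cells with *Mpo* or *Ctsg*. With the hemoglobin limit of the rule set to 0.2%, 11 WT and 334 Cko monocytes were left. The log2 ratio of the list was then -0.081 (-0.203 to 0.0439) and that of *Isg15* 0.17 (-2.41 to 5.52). Most of the 219 WT monocytes were at or above that limit, so every WT value rests largely on them. The 11 cells left cannot show where the interferon difference lies. *Oasl2*, *Xaf1* and *Irgm1* were listed only in WT, with 25, 63 and 35 UMIs in monocytes.

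*Isg15*, a ubiquitin-like protein that interferon induces, had 102 UMIs in 25.6% of WT monocytes and 34 UMIs in 6.49% of Cko monocytes, or 75.3 and 14.3 CPM, a ratio of 0.190 (0.125 to 0.282). Its ratio in B cells was 0.289 and in neutrophils 0.606. *Ifitm3*, which blocks virus entry at endosomes, was 3663 and 2917 CPM, a ratio of 0.796 (0.768 to 0.826). *Slfn2*, which keeps resting immune cells quiescent, went the other way at 352 and 464 CPM, a ratio of 1.32 (1.18 to 1.47). Among the genes with 100 UMIs, *Isg15* had the lowest and *Slfn2* the highest ratio of the list.

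The genes past 2-fold lower also included *Ifi47*, *Zbp1* and *Ifi203*, and these and further interferon genes were named after their values were seen. *Ifi47*, an immunity-related GTPase, was 119 and 31.5 CPM, a ratio of 0.265 (0.199 to 0.351), and its UMIs were in 41.6% of WT and 16.8% of Cko monocytes. It was lower in Cko elsewhere too, at 62.9 and 30.7 CPM in B cells and 13.4 and 6.66 CPM in neutrophils. Marker cells with *Mpo* or *Ctsg* had 58.9 and 34.5 CPM of *Ifi47*. *Zbp1*, a sensor of Z-form nucleic acid, was 163 and 71.9 CPM and *Ifi203* 165 and 79.5 CPM. *Gbp2*, a guanylate-binding GTPase, had 67 and 23 UMIs, *Usp18*, which removes ISG15 from proteins, 32 and 11, *Ifit1* 35 and 12, and *Ifit3* 25 and 7, a ratio of 0.159 (0.0582 to 0.379). *Ifit1* had 14 of its 35 WT UMIs in 1 cell. The low counts of these last genes leave wide intervals, 0.116 to 0.318 for *Gbp2* and 0.0922 to 0.385 for *Ifit1*.

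The promoters of this list show what these genes share in sequence. Of 19 interferon genes with a promoter in the RefSeq table of GRCm38.p6 (250 bases before to 50 after the start), 11 held GAAANNGAAA, the core of the interferon-stimulated response element, on either strand, or 57.9%, against 3.99% of all 27025 genes. The windows of 30 bases below are centred on the motif, run 5′ to 3′ on its strand, and have its fixed letters in capitals. They were picked as examples from genes with values above or below.
Isg15, chr4:156200877-156200906, minus strand: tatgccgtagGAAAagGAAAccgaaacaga
Ifi203, chr1:173942508-173942537, minus strand: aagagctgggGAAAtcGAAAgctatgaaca
Gbp2, chr3:142620594-142620623, minus strand: ttaagacagtGAAAgtGAAActaaaagagt
Ifitm3, chr7:141010723-141010752, minus strand: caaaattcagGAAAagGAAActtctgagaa
Igtp, chr11:58199512-58199541, plus strand: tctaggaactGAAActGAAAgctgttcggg
The motif centre lay 74 bases before the start of *Isg15*, 30 before that of *Ifi203*, 54 before that of *Gbp2* and 30 before that of *Igtp*, and 6 bases after that of *Ifitm3*. The monocyte ratios of these genes ran from 0.190 for *Isg15* and 0.195 for *Gbp2* through 0.480 for *Ifi203* and 0.560 for *Igtp* to 0.796 for *Ifitm3*. A match is a description of the letters and no measure of binding.

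**Figure D4:**
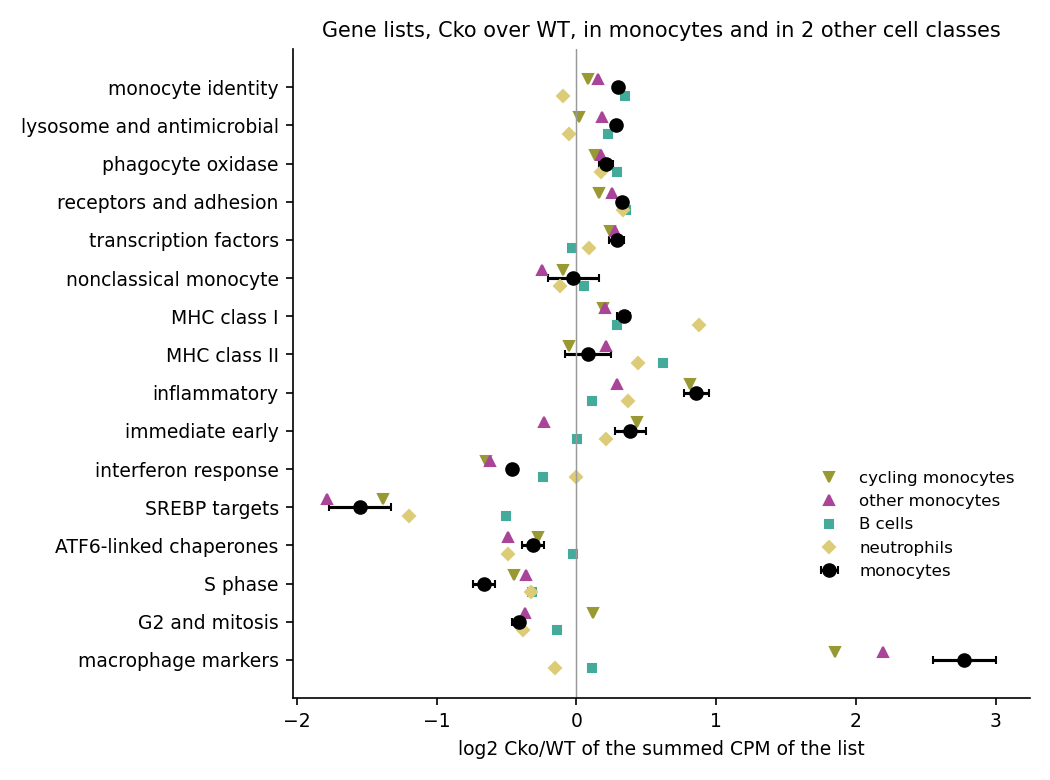
Log2 of the Cko to WT ratio for 16 gene lists, with a filled point and its exact conditional 95% interval for all monocytes, triangles for monocytes at or above (down) and below (up) the mitosis limit, squares for B cells and diamonds for neutrophils. Of these 16 lists in all monocytes, the macrophage list lies furthest to the right at 2.77 and the SREBP targets furthest to the left at -1.55.

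The summed level of cholesterol and fatty acid synthesis genes that SREBP switches on was lower in Cko monocytes, with few genes countable. Of 25 targets, 8 were listed in both libraries and 2 reached 100 UMIs, of which 1, *Fdps*, was past 2-fold lower and 0 past 2-fold higher. The ratios of the 8 were below 1, most of them on few UMIs. They summed to 444 UMIs and 328 CPM in WT, and 267 UMIs and 112 CPM in Cko, a ratio of 0.342 (0.293 to 0.399). The ratio was 0.382 at or above the mitosis limit and 0.290 (0.219 to 0.385) below it. It was 0.704 in B cells (0.638 to 0.778), 0.435 in neutrophils and 0.463 (0.418 to 0.512) in marker cells with *Mpo* or *Ctsg*, so these cells were lower in Cko too. The monocyte and B cell intervals do not meet, but 1 mouse per genotype gives no test of that difference. A further 7 targets were listed only in WT, among them *Hmgcs1* (HMG-CoA synthase) with 32 UMIs in monocytes and *Srebf2* (SREBP2 itself) with 42. *Fasn* was listed only in Cko, with 8.

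*Fdps*, the farnesyl diphosphate synthase gene, carried much of the sum. It was 155 and 40.4 CPM, a ratio of 0.260 (0.202 to 0.333), and was seen in 31.96% of WT and 9.19% of Cko monocytes after thinning, against 11.5% and 6.25% of B cells and 21.7% and 7.97% of neutrophils. In marker cells with *Mpo* or *Ctsg*, *Fdps* was 256 and 98.7 CPM. Without *Fdps* the list ratio was 0.416. *Acly*, which makes cytosolic acetyl-CoA, was 53.9 and 46.2 CPM, a ratio of 0.858 (0.632 to 1.17). Of the targets named after their values were seen, *Idi1* had 47 and 14 UMIs, *Cyp51* 26 and 8, *Scd2* 27 and 19 and *Stard4* 27 and 17. In the promoters, TCACNCCAC, a sterol regulatory element spelling, was in 1 of 16 targets (6.25%), *Hmgcs1*, against 1.44% of all genes.

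The chaperone genes linked to ATF6 differed little beside them. Of 18, 13 had 100 UMIs, with 0 past 2-fold, 4 above 0 and 9 below. They summed to 1735 and 1399 CPM, a ratio of 0.806 (0.765 to 0.850), with 0.982 in B cells and 0.711 in neutrophils. *Calr* (calreticulin) was 192 and 101 CPM, a ratio of 0.523 (0.437 to 0.626), with 28 of its 260 WT UMIs in 1 cell. *Hsp90b1* (the chaperone GRP94) was 260 and 178 CPM and *Herpud1*, which helps degrade proteins of the endoplasmic reticulum, 30.3 and 45.8 CPM. *Hspa5* (the chaperone BiP), named after its values were seen, was 111 and 112 CPM, a ratio of 1.01 (0.826 to 1.25).
The windows below show the letters that 7 of 16 of these promoters (43.8%) and 0.137% of all promoters held, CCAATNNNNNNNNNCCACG, the endoplasmic reticulum stress element on either strand, with its fixed letters in capitals.
Hsp90b1, chr10:86705632-86705661, minus strand: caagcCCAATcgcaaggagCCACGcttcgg
Calr, chr8:84847070-84847099, plus strand: atgggCCAATgagggtcgaCCACGcgttgt
Hspa5, chr2:34772020-34772049, plus strand: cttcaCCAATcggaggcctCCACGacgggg
These 3 genes held the same element, and their monocyte ratios were 0.685, 0.523 and 1.01.

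The 10 lowest ratios in Cko were mostly not monocyte genes. *Col1a1* had 1351 of its 1355 WT UMIs in 1 cell, *Col1a2* 1885 of 1890, *Dcn* 101 of 101, *Sparc* 567 of 579, *Ppbp* 917 of 924 and *Itgb3* 147 of 150. These are genes of matrix-making cells and platelets, and the cells in question met the monocyte rule. *Car1*, an erythroid carbonic anhydrase, had 153 and 39 UMIs in 8.22% and 1.35% of monocytes. *Snhg3*, a small nucleolar RNA host gene, had 94 and 10 UMIs, and *Gm26917* 91 and 15. Both were lower elsewhere too: *Snhg3* had a ratio of 0.0605 in monocytes, 0.0999 in B cells and 0.0574 in neutrophils, and *Gm26917* 0.0938, 0.264 and 0.112. *Isg15* was the only gene of these 10 on the interferon list.

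Other lower genes were also named after their values were seen. *Psme2*, a proteasome activator subunit that interferon induces, was 617 and 270 CPM, a ratio of 0.438 (0.394 to 0.486), and *Hsp90aa1*, the inducible HSP90, 423 and 166 CPM. *Ly6e*, a Ly6 family antigen also counted with the interferon genes, was 2466 and 1608 CPM, and *S100a10* 2103 and 1250 CPM. *Apobec3*, a cytidine deaminase that restricts retroviruses, was 101 and 22.3 CPM, and its ratio of 0.222 was 0.178 in B cells. Its UMIs were in 39.3% of WT and 13.5% of Cko monocytes. The *Apobec3* ratio was 0.158 (0.0975 to 0.245) at or above the mitosis limit and 0.849 (0.391 to 2.04) below it. *Actb* had a ratio of 0.498, with 1659 of its 9123 WT UMIs in 1 cell.

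Within the monocytes, *Ly6c2* itself varied. It was 4626 CPM in WT and 3631 CPM in Cko, a ratio of 0.785 (0.760 to 0.811), whereas B cells had a ratio of 1.31. After thinning, 89.5% of WT and 81.1% of Cko monocytes had 5 or more *Ly6c2* UMIs, 7.31% and 16.8% had 1 to 4, and 3.20% and 2.16% had 0. The share with 1 to 4 was 2.29 times higher in Cko (1.31 to 4.26). These limits cut a range of levels and name no subtype.

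The cells with 1 to 4 *Ly6c2* UMIs were not alike in the 2 libraries. The 16 WT cells had a median of 10512 UMIs and the 62 Cko cells 4464. *Lyz2* was 4483 CPM in the WT cells and 23570 CPM in the Cko cells, and *Apoe* 57.2 and 1540 CPM. *Sirpb1c* had 1 UMI over the 16 WT cells and 551 CPM in the Cko cells. *Irf8* was 945 and 347 CPM, the mitosis list 5937 and 1451 CPM, and other erythroid genes 2943 and 1505 CPM. Thus the low *Ly6c2* cells of Cko carried lysozyme at the level of the other monocytes (22760 CPM in the 300 Cko cells with 5 or more), and those of WT did not. Among cells with 5 or more, 196 in WT and 300 in Cko, *Lyz2* was 22037 and 22760 CPM, *Apoe* 90.3 and 619 CPM, *Fdps* 156 and 42.4 CPM and *Ifi47* 129 and 30.1 CPM. The *Apoe*, *Fdps* and *Ifi47* differences were thus present in the cells with 5 or more *Ly6c2* UMIs. *Ly6c2* did not separate monocytes from marker cells with *Mpo* or *Ctsg*, so this class is no purer set of monocytes.

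**Figure D5:**
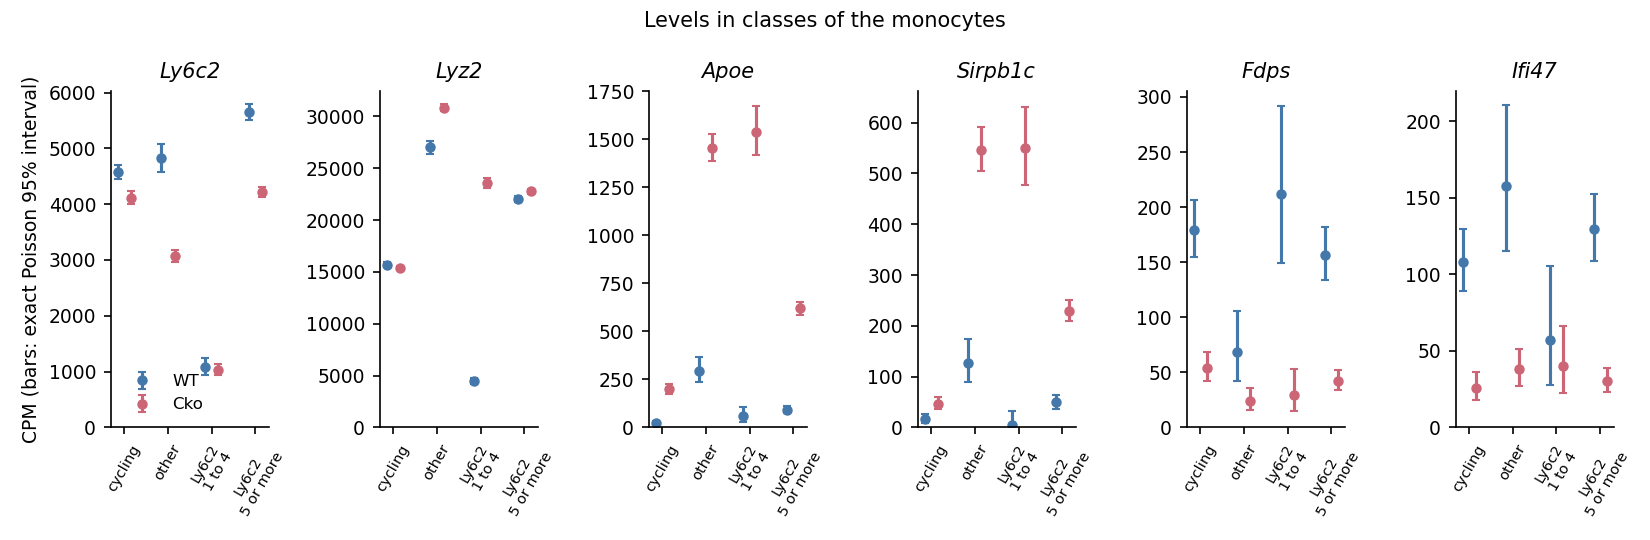
CPM with exact Poisson 95% intervals for *Ly6c2*, *Lyz2*, *Apoe*, *Sirpb1c*, *Fdps* and *Ifi47* in monocytes at or above the mitosis limit, monocytes below it, monocytes with 1 to 4 and monocytes with 5 or more thinned *Ly6c2* UMIs, WT in blue and Cko in rose. *Apoe* is higher in Cko in each of the 4 classes, and *Fdps* is lower in each.

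Nonclassical monocyte genes summed to nearly the same level in both libraries. Of 11, 8 were listed in both libraries and 4 reached 100 UMIs, with 0 past 2-fold. Their sums were 293 and 288 CPM, a ratio of 0.983 (0.868 to 1.12). *Cx3cr1*, the fractalkine receptor, was 37.7 and 57.2 CPM, *Spn* (CD43) 85.0 and 51.3 CPM and *Pou2f2* 68.7 and 78.6 CPM. *Nr4a1*, named after its values were seen, had 33 and 24 UMIs. Only 3 WT and 4 Cko monocytes had 2 or more UMIs over the list and 0 *Ly6c2* UMIs after thinning, that is 1.37% and 1.08%.

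Stefin A genes, which encode small inhibitors of cysteine cathepsins and are strong in neutrophils, were also checked. Over the family, monocytes held 67 UMIs in WT and 349 in Cko, or 49.5 and 147 CPM. Neutrophils held 4341 and 11949 CPM. B cells held 168 and 633 CPM, but had no granule limit and a few granule-rich cells carried much of this: 1 WT B cell had 227 of 341 *Stfa1* UMIs. The 754 WT and 567 Cko B cells that met the 5% granule limit of the monocyte rule held 41.4 and 129 CPM, close to the monocyte level. A *Stfa* UMI was found in 10.96% and 26.8% of monocytes and in 5.57% and 20.1% of these B cells after thinning. Per 1000 granule gene UMIs, the *Stfa* UMIs were 12.4 and 23.01 in monocytes, 25.02 and 47.6 in these B cells and 10.3 and 26.6 in neutrophils. *Stfa3* stood apart from the family: it had 16 UMIs in WT and 79 in Cko monocytes, or 2.97 and 5.21 per 1000 granule gene UMIs, against 0.357 and 1.84 in neutrophils and 0.219 and 2.99 in these B cells. It was seen in 3.65% and 8.38% of monocytes and in 0.380% and 3.12% of all B cells after thinning. Where the *Stfa* UMIs of monocytes came from was not tested. *Cstb* (stefin B), in contrast, was 325 and 345 CPM, a ratio of 1.06 (0.943 to 1.19).

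Marker lists of other lineages gave the following levels in the same monocytes. Other erythroid genes were 945 and 410 CPM, and their ratio of 0.434 was 0.498 in B cells. Median hemoglobin was 0.341% of UMIs in WT and 0.105% in Cko monocytes, and 0.301% and 0.0791% in B cells. Granule genes were 0.168% and 0.283% in monocytes and 0.111% and 0.179% in B cells. These shares moved together in both cell types. T and NK cell genes had 401 and 236 UMIs, with *Ccl5* UMIs in 1.37% and 1.35% of monocytes, so few cells held them. B cell genes outside the rule were 179 and 129 CPM, and neutrophil genes outside the granule set 2089 and 3962 CPM, with a ratio of 1.35 without *Chil3*. Progenitor genes had 203 and 590 UMIs, most of the latter from the Cko cell with *Ctla2a*. Dendritic cell genes were 694 and 417 CPM, led by *Irf8*, and *Bst2*, which is interferon-induced as well, was 141 and 82.8 CPM. The osteoclast list had 297 and 312 UMIs, and without *Csf1r*, the receptor for macrophage colony-stimulating factor at 79.0 and 89.1 CPM, its ratio was 0.300, mostly from the 1 WT cell with *Itgb3*. *Acp5* had 13 and 11 UMIs and *Ctsk* 4 and 5, both named after their values were seen, so osteoclast enzymes were close to 0 in these cells.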

How the data were processed

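Droplet single-cell libraries of BMCs from 1 WT and 1 Cko mouse were analysed. The authors made them with the Chromium Single Cell 3′ kit version 2, and the submitters' processing notes name Cell Ranger and GRCm38, with no version. The deposited matrices hold whole-number UMI counts per gene and barcode, without normalization, together with a row and a column of totals, which were removed. *Pde4d*, entered in 2 rows in WT (1564 UMIs), was left out. The WT and Cko matrices held 6287 and 3670 barcodes, the cell numbers the study states, and 6271 and 3662 with at least 200 genes were kept. They listed 7181 and 6735 genes, 6000 in both. Scrublet (scanpy 1.11.5, 5% expected) called doublets, which were left in.

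UMIs were summed over the member cells of each library and divided by their total to give CPM. With 1 library per genotype no test was possible. The Cko to WT ratio has an exact conditional 95% interval, a share an exact binomial one and a level an exact Poisson one, each for counting error only. A gene past 2-fold was called among genes with at least 100 UMIs over both libraries' monocytes, listed in both. Shares across depths used cells thinned to 3000 UMIs (seed 1), and 0 monocytes, B cells or neutrophils were shallower. B cells had at least 3 *Cd79a* UMIs, under 2 marker UMIs and under 1% hemoglobin, and those under the 5% granule limit were set apart after the values were seen. Non-erythroid cells had under 1% hemoglobin and under 3 UMIs over erythroid genes. The median monocyte had 5163 UMIs in WT and 5138 in Cko.

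Genes were named as the 10 highest and 10 lowest ratios, the 12 with the highest fold over all other cells, *Ly6c2*, the rule genes, *Stfa* genes, *Mbtps1*, *Sp7*, the sex chromosome genes and, of each list, its most abundant gene and its extremes of ratio. Others are said to be named after their values were seen, and a few genes are not reported here. The members and lists were chosen with earlier results of these data known. On simulated counts with 200 of 6000 genes changed 4-fold, 199 of the 199 changed genes with 100 UMIs came out past 2-fold in the right direction, 1 of 3447 unchanged genes came out past 2-fold, and 95.7% of intervals held the true ratio. The simulated counts had Poisson error only, the error that the interval assumes, and no differences between cells or mice. They check the computation and give no error rate for the genes called here. Software was Python 3.11.15 with pandas 2.3.3, scipy 1.17.1 for intervals, numpy 2.4.6, and matplotlib 3.10.9 for plots.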

Additional observations from a re-analysis of the deposited data

How the results depend on the processing

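With 1 library per genotype, none of these values has a replicate check, and genes with few UMIs have wide intervals. No paired analysis was possible because each genotype had 1 library without a replicate number. Of 21 alternatives, 18 were planned and the others chosen after seeing the data. All values here are log2 Cko to WT ratios unless said to be gene counts, and the cause of each move was not tested. The share of monocytes was 0.54 over non-erythroid cells and 5.70 with a hemoglobin limit of 0.2%, which left 11 WT and 334 Cko monocytes.

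Genes past 2-fold higher and lower in Cko, 65 and 85, became 318 and 135 at the 0.2% hemoglobin limit, 43 and 31 in monocytes with 5 or more *Ly6c2* UMIs, 31 and 37 at or above the mitosis limit and 40 and 18 with a minimum of 300 UMIs. The lower count was 49 below the mitosis limit, 50 with a minimum of 8 marker UMIs and 55 without the top cell of each gene. Centred on the median gene the split was 83 and 60, and with the total taken without mitochondrial, ribosomal, hemoglobin, granule and *Stfa* genes 78 and 65.

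The interferon list, -0.46, was -0.65 with 5 or more *Ly6c2* UMIs and at or above the mitosis limit, -0.62 below it, -0.51 without doublets or granule limit, -0.54 with 8 or 0.07% marker UMIs, -0.53 as a mean over cells, -0.52 without members of other lineages, -0.42 with 3 marker UMIs or a 2% granule limit, -0.36 when centred, -0.39 with the reduced total and -0.081 at the hemoglobin limit. The inflammatory list, 0.86, was 0.60 with 5 or more *Ly6c2* UMIs, 0.96 centred, 0.76 with 0.07% marker UMIs, 0.69 as a mean, 1.43 at the hemoglobin limit and 0.29 below the mitosis limit. The macrophage list, 2.77, was 2.21, 1.85, 1.97 and 2.19 with 5 or more *Ly6c2* UMIs, at or above the mitosis limit, at the hemoglobin limit and below the mitosis limit. The ATF6 list, -0.31, was -0.21 centred, -0.42 at the hemoglobin limit and -0.49 below the mitosis limit, where SREBP targets were -1.79. The stefin A family, 1.57, was 1.02 with 5 or more *Ly6c2* UMIs, 0.85 at or above the mitosis limit and 3.21 with 3 marker UMIs or no granule limit.

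Reversed values were as follows. With 5 or more *Ly6c2* UMIs, the progenitor list was -1.89, *Spp1* -1.04, *Fabp4* -0.28, *Ctla2a* -2.28, *Itgb3* 0.13 and *Sparc* 0.72. At or above the mitosis limit, the mitosis list was 0.11, the progenitor list -1.10, *Spp1* -1.40, *Fabp4* -0.85, *Ctla2a* -0.38 and *Sparc* 0.48. Below it, the immediate early list was -0.23, the dendritic list 0.042, the T and NK list 3.04, *Nkg7* 0.88 and *Ccl5* 2.32. At the hemoglobin limit, the immediate early list was -0.73, the osteoclast list 1.32, *Ppbp* 1.49, *Car1* 0.45, *Sparc* 1.12 and *Isg15* 0.17. With 3 marker UMIs, the progenitor list was -0.0050, the T and NK list 0.24, *Ccl5* 0.73 and *Gzma* 0.51. With 8, the osteoclast list was 0.19, *Col1a2* 0.50, *Ppbp* 4.08, *Itgb3* 2.58 and *Sparc* 4.86. With 0.07%, the osteoclast list was 0.11, the T and NK list 0.15, *Col1a2* 0.55, *Itgb3* 0.89, *Sparc* 5.04, *Ccl5* 0.59 and *Gzma* 0.37. Without members of other lineages, the osteoclast list was 0.086, the progenitor list -0.73, *Spp1* -1.29, *Ctla2a* -0.029, *Ppbp* 0.12 and *Sparc* 0.12. Without the top cell, the osteoclast list was 0.13, the progenitor list -0.24, *Spp1* -1.10, *Itgb3* 0.41 and *Sparc* 2.16. Of 1756 other values under alternatives, 1288 moved by less than their interval, 418 moved without a change of sign, and 50 are the reversed ones above.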
